A study of Arabidopsis thaliana with 4 samples.

Results

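The cellulose synthase catalytic subunits of Arabidopsis are encoded by the 10 genes *CESA1* to *CESA10*. They were found on the array by locus, as non-control probes whose systematic name carried one of the 10 locus identifiers, and all 10 were present among the 25665 loci of the array, each with 1 probe. The study compared gene expression in meristematic tissue (Me) and young leaves (Le) of *clv3-9* plants on 4 one-colour Agilent 44k arrays, with 2 biological replicates for each tissue. *clv3-9* carries a point mutation in the Columbia background that disrupts the signalling peptide CLAVATA3, so that the vegetative shoot apical meristem is enlarged and can be cut out by hand. Both tissues came from the mutant, grown on soil for 9 weeks in short days (8 h light, 16 h dark), and no wildtype array was part of the comparison. The dissected pieces hold many cell types, and in such samples fewer cells of a type and less RNA per cell cannot be told apart.

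Cellulose is made at the plasma membrane by rosette-shaped complexes that take up UDP-glucose in the cytosol and extrude parallel glucan chains into the wall. A complex needs catalytic subunits of different kinds. In the primary wall of growing cells, CESA1 and CESA3 work with a member of the CESA6 group, which also holds CESA2, CESA5 and CESA9, and CESA10 is the closest relative of CESA1. In the thick secondary wall of xylem vessels and fibres, CESA4, CESA7 and CESA8 form a separate complex, and loss of any of them gives collapsed, irregular xylem, hence their other names *IRX5*, *IRX3* and *IRX1*.

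Levels are given as the log2 of the processed signal of the scanner software, scaled so that the 75th percentile of every array is the same; 1 unit is a 2-fold difference. Before scaling, that percentile was a processed signal of 874 and 978 for Me and of 606 and 794 for Le, and between 60.1 and 63.2% of the probes were well above background. On each of the 4 arrays all 10 *CESA* probes were well above background and none was saturated. Levels of different probes are not compared, because probes differ in brightness for the same amount of RNA. The dissection left clear marks in the arrays. *STM*, a homeobox gene that maintains the meristem, was 6.73 log2 units higher in the meristem, and *LHCB1.4*, a light-harvesting protein gene, fell by 7.41 from leaf to meristem. The stem cell genes *CLV3* and *WUS* were higher in the meristem by 5.61 units and at least 33-fold. Under other ways of processing their differences fell to 3.16 and 1.78 log2 units, the latter smaller than that bound. Neither passed the test with another background correction, normexp. The photosynthesis genes *CA1* and *RBCS1B* differed by −9.92 and −7.44. *CA1* was well above background on only 1 meristem array, and its difference ran from −10.22 to −6.24 under other ways of processing. All 6 meristem markers and all 5 leaf markers examined were higher in their own tissue (limma with Benjamini-Hochberg adjustment, adjusted p at most 0.05). With normexp 3 of the 6 meristem markers passed, and with quantile normalization 4 of the 5 leaf markers.

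**Figure D1:**
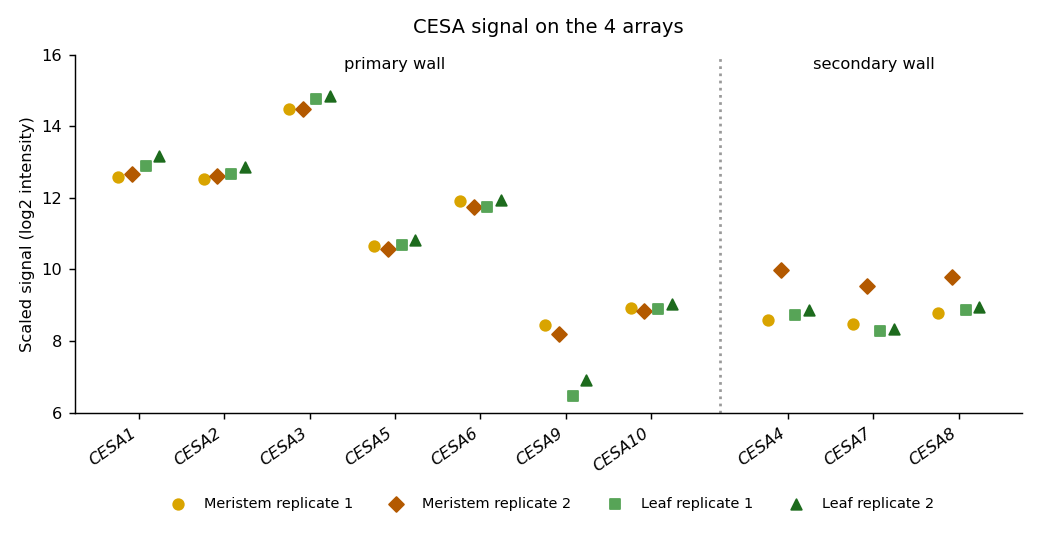
Scaled log2 signal of the 10 *CESA* genes on the 4 arrays, 1 point per array, with primary-wall genes on the left and secondary-wall genes on the right. *CESA9* lies between 8.20 and 8.46 in the meristem and between 6.46 and 6.90 in the leaf, and *CESA4*, *CESA7* and *CESA8* each have 1 meristem point, replicate 2, far above the other 3 arrays; heights of different genes are not comparable.

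Of the 10 genes, 1 differed between the tissues, *CESA9*, which was higher in the meristem. The threshold was an adjusted p of at most 0.05 over the 23259 loci tested, and 48.6% of these loci passed it, 27.1% with the higher level in the meristem and 21.6% with the higher level in the leaf. With each array scaled to its median instead, 5 of the 10 *CESA* genes passed. No *CESA* gene also passed a 4-fold difference, which 13% of all loci did, 6.55% with the higher level in the meristem. The tissues did not overlap for 6 of the 10 genes, against 79.3% of all loci. Of these 6 genes, 4 were higher in the leaf, a direction seen without overlap at 35.5% of all loci, and 2 in the meristem, seen at 43.8%.

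Among the genes of the primary-wall complex, CESA1 and CESA3 are the subunits for which no other member can stand in during growth. *CESA1* (AT4G32410) was measured at 12.58 and 12.66 in the meristem and at 12.90 and 13.17 in the leaf. The leaf arrays were both above the meristem arrays. The difference of −0.41 log2 units (SE 0.15, 95% interval −0.82 to −0.01, n = 2 arrays per tissue) did not pass after adjustment over all loci (limma with Benjamini-Hochberg adjustment, adjusted p = 0.0856). *CESA3* (AT5G05170) stood at 14.49 on both meristem arrays and at 14.76 and 14.86 in the leaf. Again the tissues did not overlap, and again the difference, −0.32 (SE 0.12, interval −0.65 to 0.00486), fell short of the threshold (limma with Benjamini-Hochberg adjustment, adjusted p = 0.0916). *CESA10* (AT2G25540), which has sequence most like that of *CESA1*, had 8.92 and 8.85 in the meristem and 8.89 and 9.04 in the leaf. Its tissues overlapped, and the interval of the difference, −0.08, ran from −0.43 to 0.27.

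The third position of the primary complex is filled by the CESA6 group. *CESA6* (AT5G64740), whose loss alone shortens the dark-grown hypocotyl, had levels of 11.90 and 11.75 in the meristem and 11.74 and 11.94 in the leaf. The arrays of the 2 tissues were interleaved, with a difference of −0.01 and an interval from −0.40 to 0.38. *CESA2* (AT4G39350) was at 12.52 and 12.60 in the meristem and at 12.68 and 12.87 in the leaf. *CESA5* (AT5G09870), also known for its part in seed coat mucilage, was at 10.65 and 10.56 in the meristem and at 10.69 and 10.82 in the leaf. For both genes the leaf arrays were the higher ones, by margins that did not pass the test. The differences were −0.21 (interval −0.58 to 0.15) for *CESA2* and −0.15 (interval −0.49 to 0.20) for *CESA5*. With the arrays scaled as above, the intervals of these 6 genes leave room for a leaf level up to 0.82 log2 units above the meristem (*CESA1*). In the other direction they leave room for a meristem level up to 0.38 units above the leaf (*CESA6*). These intervals do not cover the choice of scaling. With arrays scaled to the spike-in probes, the differences themselves ran from 0.35 (*CESA1*) to 0.75 (*CESA6*). With arrays scaled to their median, they ran from −0.71 (*CESA1*) to −0.31 (*CESA6*).

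*CESA9* (AT2G21770), the remaining gene of the CESA6 group, was the 1 that passed the test. It is best known from the seed coat, where it takes part in the secondary wall of epidermal cells. Its scaled levels were 8.46 and 8.20 in the meristem and 6.46 and 6.90 in the leaf. The lowest meristem array was above the highest leaf array by more than the replicates of either tissue differed. This also held before any scaling, with processed signals of 384 and 359 in the meristem and 66.4 and 119 in the leaf. The difference was 1.65 log2 units (SE 0.21, 95% interval 1.07 to 2.22), a fold of 3.13, and passed the test (limma with Benjamini-Hochberg adjustment, adjusted p = 0.00524). Its probe of 60 bases lies at chr2:9296511-9296570 on the plus strand in the coordinates of the array design, whose genome build is not named. With another background correction (normexp) the difference was 0.89 and did not pass (adjusted p = 0.185).

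**Figure D2:**
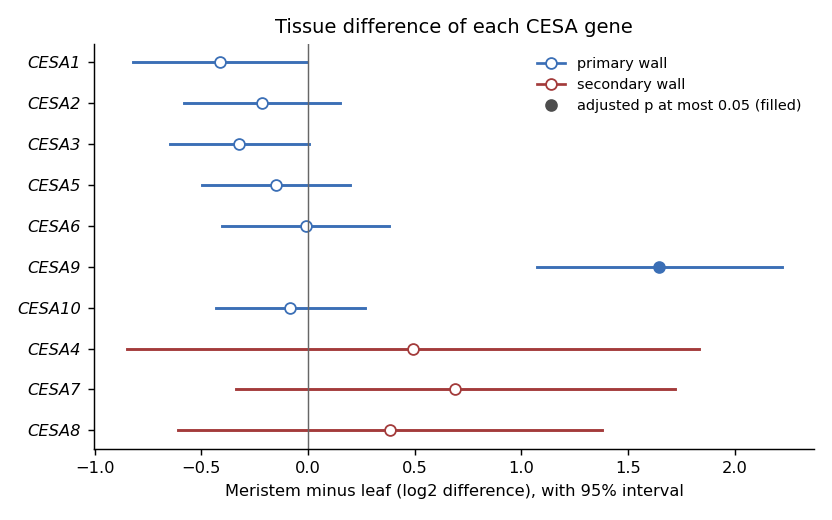
Meristem minus leaf difference of each *CESA* gene in log2 units with its 95% interval from limma, with a filled point where the adjusted p was at most 0.05. The interval of *CESA9*, 1.07 to 2.22, lies wholly above 0, and the widest interval is that of *CESA4*, −0.85 to 1.84; *CESA1*, *CESA2*, *CESA3*, *CESA5*, *CESA6* and *CESA10* turn to positive differences when arrays are left unscaled or scaled to the spike-in probes.

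Because scaling moves all genes of an array together, the contrast of *CESA9* with the other primary-wall genes was also taken within each array. Every gene was first centred on its own mean over the 4 arrays. In the meristem *CESA9* then stood 1.04 and 0.80 log2 units above the mean of the other 6 primary-wall genes, and in the leaf its values relative to that mean were −1.06 and −0.79. The relative position of *CESA9* thus shifted by 1.85 units between tissues, a value that adding a constant to every log2 level of an array cannot change. Quantile normalization and normexp are not such constants. With them the difference of *CESA9* itself was 1.46 and 0.89, against 1.65. The remaining 6 genes kept close to each other, and none of them departed from their shared profile by more than 0.16 units on any array. Log2 ratios between pairs show the same: that of *CESA3* to *CESA1* varied over the 4 arrays by 0.21, that of *CESA6* to *CESA1* by 0.55, and that of *CESA9* to *CESA2* by 2.16.

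The 3 genes of the secondary-wall complex moved together, but with 1 array rather than with the tissue. *CESA4* (AT5G44030) had levels of 8.59 and 9.99 in the meristem and 8.74 and 8.86 in the leaf. *CESA7* (AT5G17420) had 8.48 and 9.53 in the meristem and 8.29 and 8.34 in the leaf. *CESA8* (AT4G18780) had 8.78 and 9.79 in the meristem and 8.86 and 8.94 in the leaf. For each gene, meristem replicate 2 stood far above the other 3 arrays, while meristem replicate 1 was at about the level of the leaves. The unscaled processed signals of *CESA4* were 422 and 1245 in the meristem and 323 and 462 in the leaf. The 3 probes lie at chr5:17736653-17736712 (plus strand), chr5:5736879-5736938 (minus) and chr4:10312893-10312952 (minus), in the coordinates of the array design.

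The tissue differences of the trio were accordingly imprecise. *CESA4* differed by 0.49 log2 units (SE 0.50, 95% interval −0.85 to 1.84, n = 2 per tissue), *CESA7* by 0.69 (SE 0.38, −0.34 to 1.72) and *CESA8* by 0.38 (SE 0.37, −0.61 to 1.38). None passed the test (limma with Benjamini-Hochberg adjustment, adjusted p = 0.447, 0.204 and 0.426). For *CESA4* and *CESA8* the tissues overlapped, whereas both meristem values of *CESA7* were above the leaf values. Without meristem replicate 2 the differences were −0.21 for *CESA4*, 0.16 for *CESA7* and −0.12 for *CESA8*; without meristem replicate 1 they were 1.19, 1.22 and 0.89, and all 3 genes passed (limma with Benjamini-Hochberg adjustment, adjusted p = 0.00977, 0.00820 and 0.0170), with the remaining meristem array assumed to vary like the leaf arrays.

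Between the meristem replicates, replicate 2 was above replicate 1 by 1.4 log2 units for *CESA4*, 1.05 for *CESA7* and 1.01 for *CESA8*. These are values of single arrays, with no test. Among all loci tested, 2.21% were at least 2-fold higher on meristem replicate 2 than on replicate 1, and the middle 90% of loci lay between −0.75 and 0.65. A larger gap than that of *CESA4* was seen at 214 loci, and a larger gap than that of *CESA8*, the smallest of the trio, at 504 loci. The leaf replicates showed nothing of this kind, with gaps of 0.13, 0.06 and 0.08 for *CESA4*, *CESA7* and *CESA8*. Ratios within the trio were stable in spite of these gaps. The log2 ratio of *CESA4* to *CESA7* varied by 0.41 over the 4 arrays, that of *CESA4* to *CESA8* by 0.39 and that of *CESA7* to *CESA8* by 0.34, whereas that of *CESA7* to *CESA1*, across the classes, varied by 1.70.

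**Figure D3:**
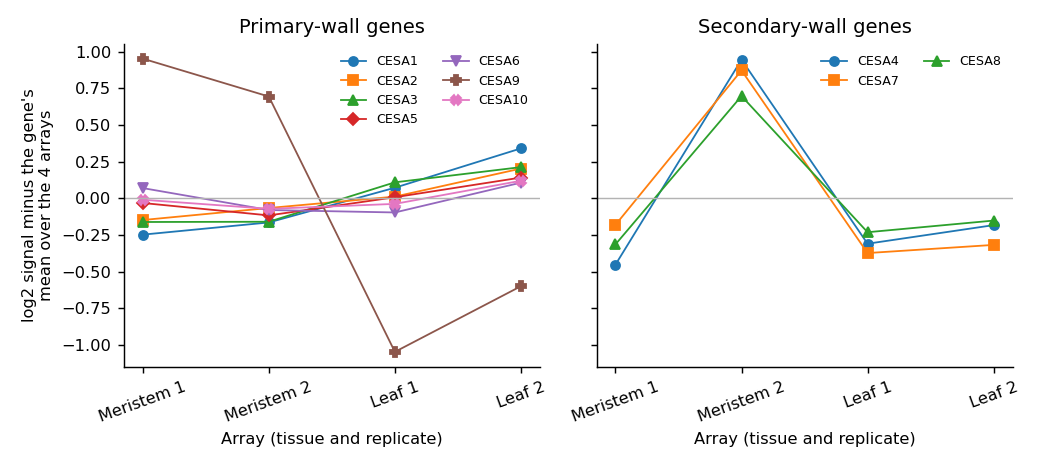
Scaled log2 signal of each *CESA* gene minus its own mean over the 4 arrays, with the primary-wall and the secondary-wall genes shown by class. *CESA4*, *CESA7* and *CESA8* peak together on meristem replicate 2 at 0.95, 0.87 and 0.70, *CESA9* falls from 0.95 and 0.69 in the meristem to −1.05 and −0.60 in the leaf, and the other genes lie between −0.25 and 0.34.

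The classes were then set against each other within each array, as the mean centred level of the secondary-wall genes minus that of the primary-wall genes. This contrast was −0.38 and 0.83 log2 units in the meristem and −0.16 and −0.29 in the leaf. The tissues overlapped, since the leaf values lay between the meristem values. The mean shift from leaf to meristem was 0.46, and it was −0.15 without meristem replicate 2 and 1.06 without replicate 1. When *CESA9* was set aside, the contrast was −0.23 and 0.95 in the meristem and −0.32 and −0.41 in the leaf. Both meristem arrays were then above both leaf arrays, with replicate 1 above the nearer leaf array by less than the gap between the meristem replicates. *CESA9* was set aside with its values known, and leaving out a primary-wall gene that is high in the meristem necessarily moves the contrast in this direction.

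Loci with the profile most like that of *CESA4*, *CESA7* and *CESA8* were sought among the 18558 loci well above background on all 4 arrays, by the Euclidean distance of centred log2 profiles over these arrays. The nearest was *COBL4* at a distance of 0.111, a COBRA-like gene whose mutant also has irregular xylem. Its levels were 6.92 and 7.98 in the meristem and 6.79 and 6.89 in the leaf, so that it too stood apart on meristem replicate 2. AT2G15880 at 0.134 and AT5G64120, a peroxidase gene, at 0.155 came next. The farthest of the trio itself lay at 0.185 from the mean profile, and 7 other loci were nearer than that. For *CESA1*, *CESA3* and *CESA6* the nearest loci were *BGAL9* at 0.0098, *GDH2* at 0.0379 and *SUVH2* at 0.0388, but 1480 loci (7.98%) were nearer than the farthest of these 3 genes, so that their flat profile was a common one. With 4 arrays, such likeness describes these samples only.

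**Figure D4:**
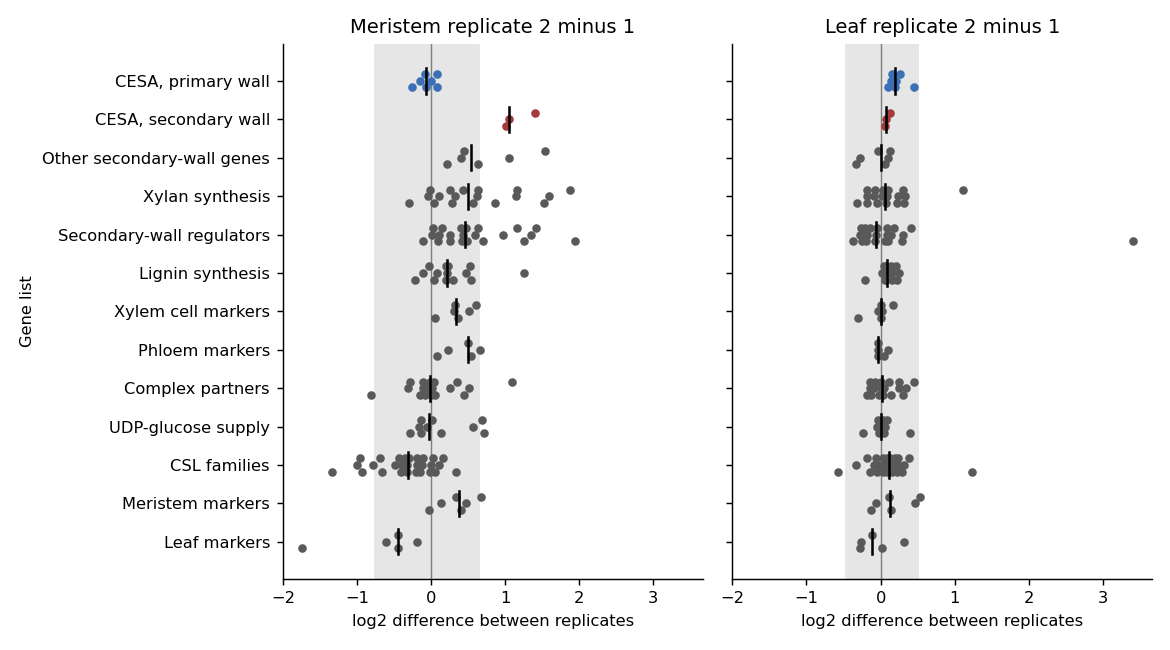
Replicate 2 minus replicate 1 of each tissue in log2 units for the *CESA* classes and the wall gene lists, 1 point per gene, with a black bar at the median of each list and a grey band from the 5th to the 95th percentile of all 23259 loci (−0.75 to 0.65 in the meristem, −0.47 to 0.50 in the leaf). The 3 secondary-wall *CESA* genes lie at 1.01 to 1.4 between the meristem replicates (left) and at 0.06 to 0.13 between the leaf replicates (right), and 21 of the 22 regulators of the secondary wall lie above 0 on the left.

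Other genes of the secondary wall were examined on the same meristem replicates. Of 22 transcription factor genes that regulate this wall, 21 were higher on replicate 2 than on replicate 1, with a median gap of 0.46 log2 units, and 5 were at least 2-fold higher. Among all loci 52.1% were higher on replicate 2 and the median gap was 0.02. *SND1*, a NAC master regulator of fibre walls, was 1.94 units higher on replicate 2. The synthesis of xylan, the main hemicellulose of this wall, was represented by 18 genes, of which 15 were higher on replicate 2, with a median gap of 0.50. *GAUT12*, known as *IRX8*, went from 6.59 to 8.18, *IRX15* from 5.97 to 7.50 and *GXM3*, a glucuronoxylan methyltransferase gene, from 4.34 to 6.22. For lignin the gap was smaller, with a median of 0.21 over 14 genes, 11 of them higher on replicate 2, although the laccase gene *LAC4* went from 6.21 to 7.47. All 6 other secondary-wall genes were higher on replicate 2, *CTL2*, a chitinase-like gene of secondary walls, with 9.30 against 10.84. The single genes named here were chosen after their values had been seen.

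Markers of vascular cells moved in the same direction on these meristem arrays. The 6 xylem cell markers were all well above background on all 4 arrays, and their summed scaled signal was 4103 and 5196 in the meristem and 7614 and 7775 in the leaf. The 5 phloem markers summed to 13580 and 16916 in the meristem and 23675 and 24063 in the leaf. Replicate 2 was thus above replicate 1 for each of these 11 markers. The median gap was 0.34 log2 units for xylem and 0.50 for phloem. Yet both scaled sums were higher in the leaf than on either meristem array. This order of the tissues depends on the scaling. With spike-in scaling the median meristem minus leaf difference was 0.25 for the phloem markers and −0.23 for the xylem markers. For comparison, the summed scaled signal of *CESA4*, *CESA7* and *CESA8* was 1183 and 2647 in the meristem and 1205 and 1283 in the leaf. The rise was not limited to vascular markers. Of the 6 meristem markers, 5 were higher on replicate 2 than on replicate 1, with a median gap of 0.37. Other wall lists did not share the rise. Replicate 2 was higher for 3 of 7 primary-wall *CESA* genes and 9 of 18 genes that act with the CESA subunits. It was higher for 5 of 10 genes of UDP-glucose supply and 5 of 28 cellulose synthase-like genes. The 5 leaf markers summed to 94235 and 69057 in the meristem, with the lower value on replicate 2. The part of tissue composition in the *CESA* values was not tested.

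The xylem cell markers include genes of the programmed death of vessel cells, and 5 of the 6 were higher in the leaf, a call made for 21.6% of all loci. *RNS3*, a ribonuclease gene, differed by −1.13 log2 units, *BFN1*, a nuclease gene, by −1.05 and *XCP1*, a xylem protease gene, by −1.04 (limma with Benjamini-Hochberg adjustment, adjusted p = 0.0128, 0.00831 and 0.00366). None of the 6 was called higher in the leaf with normexp, with unscaled arrays or with scaling to the spike-in probes, and with the last 1 of the 6 was called higher in the meristem; the median of the list was −0.76, −0.58 and −0.23. Of the phloem markers, *SUC2*, the sucrose transporter of companion cells, was higher in the leaf, with a difference of −1.74 (adjusted p = 0.00445), and the other 4 did not pass.

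Between tissues, the calls among the secondary-wall lists depended on the scaling. Over all loci, 27.1% were called for the meristem and 21.6% for the leaf. Of the 22 regulators, 6 were called for the meristem as the higher tissue, 3 for the leaf and 13 did not pass. Their median difference was 0.54 log2 units against 0.10 over all loci. *NST1*, a NAC master regulator partly redundant with *SND1*, was at least 2.97-fold higher in the meristem, its leaf signal being too close to background for a measured fold, while *SND1* differed by 2.61 and *MYB61* by 2.01 (limma with Benjamini-Hochberg adjustment, adjusted p = 0.00625, 0.0369 and 0.00255). In the opposite direction, *VNI2*, which encodes a repressor of vessel formation, differed by −1.18, *VND4*, a vessel regulator, by −0.97 and *MYB83* by −0.59. *MYB83* turned to 0.17 with spike-in scaling. Under the alternatives the difference of *NST1* fell to 0.21 log2 units, smaller than its bound, and *NST1* did not pass with normexp. The call of *SND1* was lost in 8 of 16 alternatives, leaving out either leaf array among them, and its difference ran from 0.70 to 3.58. The split of the regulators became 12 for the meristem and 0 for the leaf with no scaling and 15 and 1 with spike-in scaling, whereas with normexp 1 passed, for the leaf, and the median was −0.00451. Of the 18 xylan genes, 2 were higher in the meristem, *IRX15L* by 2.06 and *IRX14L* by 0.59, and 3 were higher in the leaf, *FRA8* with a difference of −1.38, *TBL29*, a xylan acetyltransferase gene, with −1.23 and *GXM2* with −0.62, which turned to 0.15 with spike-in scaling. This split became 3 and 1 with no scaling, 11 and 0 with spike-in scaling and 0 and 0 with normexp, and the median of 0.31 ran from 0.00941 with median scaling to 1.07 with spike-in scaling.

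The lignin calls stand beside 27.1% of all loci called for the meristem and 21.6% for the leaf. Of the 14 lignin genes, 3 were higher in the meristem, namely *C4H* by 1.70 log2 units, *CAD5* by 0.90 and *PAL1* by 0.49. The 5 that were higher in the leaf included the laccase genes *LAC17* and *LAC11*, whose enzymes polymerise monolignols in the wall, with differences of −1.94 and −1.85, and *FAH1*, of the syringyl branch of the monolignol pathway, with −1.71 (limma with Benjamini-Hochberg adjustment, adjusted p = 0.00113, 0.00404 and 0.00119). The remaining lignin genes called for the leaf were *CAD4*, with a difference of −1.64 and thus opposite to *CAD5*, and *4CL1*, with −0.80. The split of the lignin genes became 0 for the meristem and 3 for the leaf with normexp. It was 1 and 6 with median scaling and 6 and 4 with spike-in scaling. *CAD5* and *PAL1* did not pass with normexp or with median scaling. Of the 6 other secondary-wall genes, *TED7*, first found in tracheary elements, was higher in the leaf, with a difference of −1.99, and 5 did not pass.

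The list of genes that act with the CESA subunits held 18 genes, of which 4 were called for the meristem, 3 for the leaf and 11 did not pass. The shares over all loci were 27.1% and 21.6%. The median of the list was 0.10 log2 units, that of all loci. *CSI1*, which links the complex to cortical microtubules, and *KOR1*, the membrane-bound endoglucanase of the primary complex, differed by −0.06 and −0.01, close to *CESA6*. *KOR3*, a relative of *KOR1*, was higher in the meristem by 0.91 (limma with Benjamini-Hochberg adjustment, adjusted p = 0.0237), and so were AT1G78880 by 0.79 and AT5G42860 by 0.61. Lower in the meristem were *CTL1*, a chitinase-like gene needed for normal cellulose content, by −0.70, *COB*, whose GPI-anchored product orients cell expansion, by −0.59 and *KLCR2* by −0.54, yet each of these 3 turned positive with spike-in scaling, to 0.06, 0.17 and 0.23. Between 0 and 15 of the 18 passed under the alternatives that were run.

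UDP-glucose is the substrate of the CESA enzymes. Of 10 genes of its supply, 5 were called for the meristem and 2 for the leaf, against 27.1% and 21.6% of all loci, with a median of 0.42 log2 units. The split became 5 and 0 with no scaling, 8 and 0 with spike-in scaling and 1 and 0 with normexp. The sucrose synthase genes *SUS4*, *SUS1* and *SUS3*, whose enzymes make UDP-glucose from sucrose, were higher in the meristem by 6.25, 2.75 and 1.70 (limma with Benjamini-Hochberg adjustment, adjusted p = 0.000503, 0.00354 and 0.00885). For *SUS4* this was a fold of 76.1. *UGP2* and *UGP1*, which encode UDP-glucose pyrophosphorylase, differed by −0.78 and −0.48, the latter turning to 0.29 with spike-in scaling. Over the alternatives the number of these genes that passed ran from 1 to 9.

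**Figure D5:**
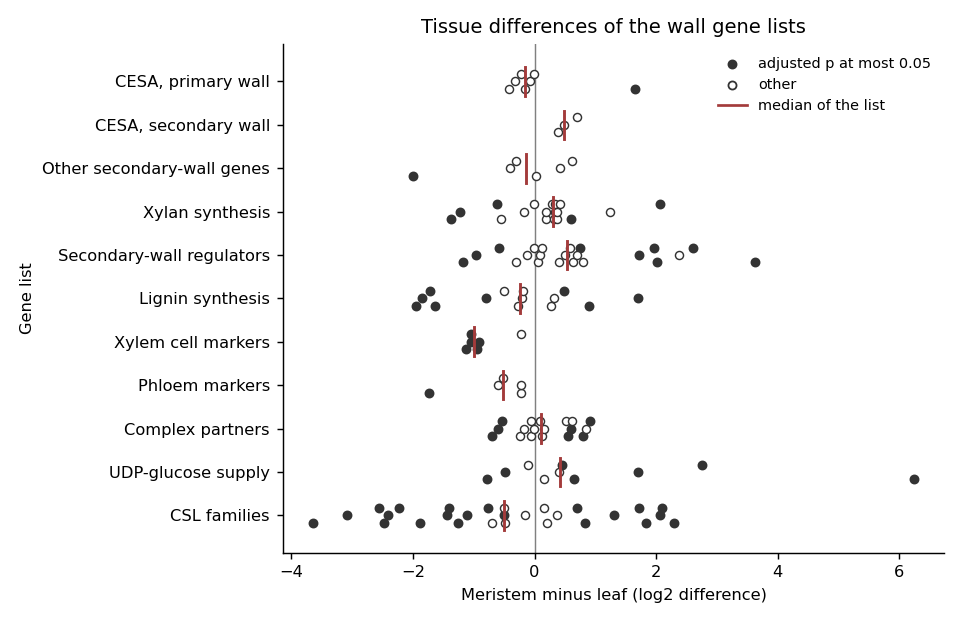
Meristem minus leaf difference in log2 units for the *CESA* classes and the wall gene lists, 1 point per gene (filled where the adjusted p was at most 0.05; genes near background in 1 tissue at their fitted value), with the median of each list as a bar. Medians run from −0.99 for the xylem cell markers to 0.54 for the secondary-wall regulators and lie at −0.15 for the primary-wall and 0.49 for the secondary-wall *CESA* genes; medians turn sign for the primary-wall genes with quantile normalization (0.02), no scaling (0.27) and spike-in scaling (0.62), for lignin (0.18, 0.53) and the other secondary-wall genes (0.27, 0.62) with the last 2 of these, for the phloem markers (0.25) and the cellulose synthase-like genes (0.27) with spike-in scaling, for the complex partners with median scaling (−0.19) and for the regulators with normexp (−0.00451).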

How the data were processed

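The authors deposited the Feature Extraction 9.5.3.1 output of each of the 4 arrays as intensities per spot; the processed signal used here is background-subtracted and detrended and is not scaled between arrays. All arrays lay on 1 slide and had 1 scan date. Outlier spots (10 to 12 per array) were set to missing. The log2 processed signal was scaled to a common 75th percentile, and the brightest probe stood for a locus. Loci with a background-subtracted signal above 0 in both replicates of at least 1 tissue were tested (23259 of 25665) with limma 3.58.1 in R 4.3.3, with Benjamini-Hochberg adjustment over all of them and no block. The script was tested on simulated data. The lowest p of an exact permutation test of 2 against 2 arrays is 0.333, so none was used. The number of arrays limits the precision; the pooled replicate SD was 0.314 log2 units. Where neither replicate of the lower tissue was well above background, folds are lower bounds, computed against the dimmest signal that was so on each array, or the probe's own signal if higher. These bounds hold for the main processing only.

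Class contrasts, profiles and replicate gaps are descriptions without a test. The text names all *CESA* genes and, of every other list, up to 3 genes per direction with the largest difference among those that passed, did not overlap between tissues and were well above background in both replicates of the higher one. Genes named for their replicate gap, their profile or as known partners (*CSI1*, *KOR1*) fall outside this rule; apart from the nearest profiles, they were chosen after their values were seen. Members and lists were chosen with earlier results of these data known. Alternatives were normexp background correction (offset 50), quantile normalization, median, spike-in and no scaling, no filter, a filter on probes well above background, the mean of a locus's probes, each probe on its own, the methods' t-test, the replicate number as a block, and leaving out each array. Gene symbols follow RefSeq. Probe, promoter and protein sequences were not used here.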

Additional observations from a re-analysis of the deposited data

How the results depend on the processing

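*CESA9* was higher in the meristem under all 16 alternatives run and passed in all but 2: with normexp (0.89, adjusted p = 0.185) and when p-values of the methods' t-test were adjusted by Benjamini-Hochberg (1.65, adjusted p = 0.0700). The filters, the block, the t-tests and, with 1 probe, the alternatives on probes left the difference at 1.65. These could not have turned its direction. The number of *CESA* genes passing was 0 with normexp, 5 with median scaling, 3 with no scaling, 7 with spike-in scaling, 2 with the t-test unadjusted and 0 after adjustment, and 1 to 4 when 1 array was left out (4 without meristem replicate 1). Scaling moved the median of all loci from 0.10 log2 units to −0.07 (normexp), 0.09 (quantile), −0.20 (median), 0.51 (none) and 0.86 (spike-in), and the median of the primary-wall genes from −0.15 to −0.11, 0.02, −0.45, 0.27 and 0.62.

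Reversed differences with no scaling were 0.00284 for *CESA1*, 0.20 for *CESA2*, 0.0939 for *CESA3*, 0.27 for *CESA5*, 0.41 for *CESA6* and 0.33 for *CESA10*. With spike-in scaling, in the same order, they were 0.35, 0.55, 0.44, 0.62, 0.75 and 0.68. Quantile normalization gave 0.0157 for *CESA2*, 0.0208 for *CESA3* and 0.11 for *CESA6*, and normexp 0.00744 for *CESA6*. Median scaling made *CESA1* (−0.71), *CESA2* (−0.51), *CESA3* (−0.62) and *CESA5* (−0.45) pass as lower in the meristem. *CESA3* also passed the unadjusted t-test (−0.32). No scaling made *CESA4* (0.91) and *CESA7* (1.11) pass, and spike-in scaling *CESA7* (1.46) and *CESA8* (1.15).

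With 1 array left out, differences ran from −0.55 to −0.28 for *CESA1*, −0.31 to −0.12 for *CESA2*, −0.37 to −0.27 for *CESA3*, −0.21 to 1.19 for *CESA4*, −0.22 to −0.08 for *CESA5*, −0.11 to 0.09 for *CESA6*, 0.16 to 1.22 for *CESA7*, −0.12 to 0.89 for *CESA8*, 1.42 to 1.87 for *CESA9* and −0.16 to −0.00278 for *CESA10*. *CESA4* and *CESA8* reversed without meristem replicate 2, and *CESA6* without meristem replicate 2 (0.06) and without leaf replicate 2 (0.0916).

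Loci higher in the leaf numbered 5014, or 1305 with normexp, 2836 with no scaling, 2618 with spike-in scaling, 2802 with the adjusted t-test and 3676 to 4847 with 1 array left out. Loci higher in the meristem numbered 6301, or 547, 4088 with median scaling, 15022 with spike-in scaling, 2808 with the adjusted t-test and 3736 to 5918, the value of 547 being that with normexp. In the wall lists 63 genes passed, or 9 with normexp, 21 with the adjusted t-test and 34 to 67 with 1 array left out, the lowest without leaf replicate 1. The cause of these shifts was not tested. Same-numbered replicates of the tissues deviated with a correlation of 0.0902 across loci. With so few arrays, pairing meristem replicate 1 with leaf replicate 2 necessarily gives the same value with the opposite sign, −0.0902. The correlation therefore cannot decide whether same-numbered replicates share more than a number, and this was not tested. With the replicate number as a block, *CESA9* passed (adjusted p = 0.0174), as the 1 *CESA* gene to do so, and 60 wall list genes passed. Among the genes named from the lists, *CTL1*, *MYB83* and *UGP1* lost their call in 10 of 16 alternatives, *KLCR2* in 9, and *COB*, *GXM2*, *PAL1* and *SND1* in 8.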

Other observations

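The cellulose synthase-like (CSL) families, relatives of the CESA proteins that make other wall polysaccharides, were examined between the tissues. Of 28 genes tested of 30 listed, 8 were higher in the meristem, 13 were higher in the leaf and 7 did not pass. The shares over all loci were 27.1% for the meristem and 21.6% for the leaf. The median of the list was −0.49 log2 units, which turned to 0.27 with spike-in scaling. *CSLA2*, a glucomannan synthase gene, was higher in the meristem by 2.30 and *CSLC12*, of the xyloglucan backbone family, by 2.10 (limma with Benjamini-Hochberg adjustment, adjusted p = 0.00138 and 0.00614). *CSLD1* was at least 1.69-fold higher in the meristem and turned to −0.10 with normexp. *CSLB4* was lower in the meristem, with a difference of −3.65 (adjusted p = 0.00569), and *CSLA1* and *CSLG2* were at least 4.19-fold and 2.06-fold lower there. With normexp *CSLB4*, *CSLA1* and *CSLG2* did not pass. Under the alternatives the differences of *CSLA1* and *CSLG2* shrank to −0.49, smaller than those bounds. Of all 122 genes tested in the wall lists and the xylem cell markers, 63 passed (51.6%), close to the share of all loci.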
